A study of Mus musculus with 8 samples.

Results

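Livers of mice labelled MLL4 het and of wild-type mice, both fed normal chow, were compared by RNA-seq. The comparison used 4 of the 8 libraries of the series: MLL4 het chow libraries 3 and 4 and wild-type (WT) chow libraries 1 and 2, chosen by the genotype and diet in their titles. All mice were C57 Black and began their diet at 8 weeks of age, which lasted 8 weeks. The other 4 libraries come from mice on a high fat diet (HFD), namely MLL4 het libraries 7 and 8 and WT libraries 5 and 6. They gave an estimate of the spread and a second genotype contrast that shares no library with the one on chow. The comparison covered 12593 of the 22946 rows of the count table, those with enough counts. The labels name no MLL4 allele, and they do not say that a group's libraries are from different mice. The p-values therefore reflect the spread of these libraries alone, and that spread may be technical.

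MLL4 is a histone methyltransferase that places a mark of active enhancers, the methylation of lysine in histone H3, and it works in a large complex together with the demethylase encoded by Kdm6a. In liver it has been studied as a co-activator of genes of fat storage and of bile acid metabolism. Besides hepatocytes, liver RNA holds RNA of sinusoidal endothelial cells, stellate cells, bile duct cells and Kupffer cells, the resident macrophages, which clear particles from portal blood and produce complement C1q.

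Total counts were 14184486 and 14460892 in MLL4 het chow libraries 3 and 4, and 15509216 and 17330137 in WT chow libraries 1 and 2. The unit of all levels is CPM, with each library scaled to 1e+06 counts, and 3 counts of a gene correspond to 0.174 to 0.213 CPM in these libraries. The biological coefficient of variation was 13.8% within the MLL4 het chow group and 7.57% within the WT chow group. In a principal component analysis of all 8 libraries the chow libraries of the 2 genotypes lay apart on component 2, at -19.5 and -3.7 in MLL4 het and at 22.4 and 25.2 in WT libraries. MLL4 het libraries 3 and 4 also lay apart from each other on component 4, at 13.9 and -23.5. Hepatocyte markers summed to 123900 and 118400 CPM in MLL4 het chow libraries and to 131700 and 124200 CPM in WT chow libraries, and Xist was at most 0.476 CPM in these 4 libraries while 4 Y-linked genes were at 13.6 CPM or above. Major urinary protein genes, joined in 1 row, held 13.6% and 11.6% of the counts of the MLL4 het chow libraries, and 7.42% and 9.94% of those of the WT chow libraries.

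The gene named by the genotype label was examined first. Kmt2d, the gene usually meant by MLL4, stands in the count table under its older symbol Mll2. It was at 59.95 and 72.1 CPM in MLL4 het chow livers, against 61.2 and 69.6 CPM in WT chow livers. The groups overlapped, and the log2 difference was 0.01 ± 0.13 (SE; 95% interval -0.27 to 0.30; edgeR adjusted p = 0.975). The name MLL4 has also been used for Kmt2b, listed as Wbp7, which was at 34.9 and 37.97 CPM in MLL4 het and at 31.5 and 32.4 CPM in WT chow livers (log2 difference 0.19 ± 0.09, edgeR adjusted p = 0.349). The sign of the Kmt2d difference turned with RLE factors, with DESeq2 and without a filter on low counts. It also turned without library 1 or 4, where the difference was -0.09 and -0.14. Lower Kmt2d RNA in the libraries labelled MLL4 het was therefore not detectable. Counts over a whole gene are blind to an allele whose RNA is still made in normal amounts, so the genotype label is not checked by these values. Of 15 tested genes of H3K4 methyltransferase complexes, 0 passed the test in either direction, and their median log2 difference was 0.13, beside 0.01 over all tested genes. Kmt2c, the closest relative of Kmt2d and listed as Mll3, was at 44.2 and 43.1 CPM in MLL4 het and at 45.2 and 42.0 CPM in WT chow livers. Kdm6a was at 17.1 and 16.8 CPM in MLL4 het and at 13.6 and 14.3 CPM in WT chow livers, with edgeR adjusted p = 0.256.

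On chow, 8 of 38 tested markers of Kupffer and other myeloid cells and 3 of 36 genes of the interferon response were higher in MLL4 het livers, while single genes of lipid droplets, zinc transport, amino acid synthesis and haem synthesis were lower. In all, 65 of 12593 genes were called, that is, passed the edgeR quasi-likelihood test at an adjusted p under 0.05, which is 0.516% of the genes tested. Of these, 41 were higher in MLL4 het livers (0.326%) and 24 were lower (0.191%). An unadjusted p under 0.05 was reached by 15.3% of all genes. Both MLL4 het libraries lay above both WT libraries for 24.0% of all genes and below both for 21.9%, and a log2 difference above 0 was found for 52.5%. Called genes had log2 differences of at least 0.50 in size, and all 65 separated the 4 libraries by genotype. Both traits rest on the values that made the calls and add no support to them.

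**Figure D1:**
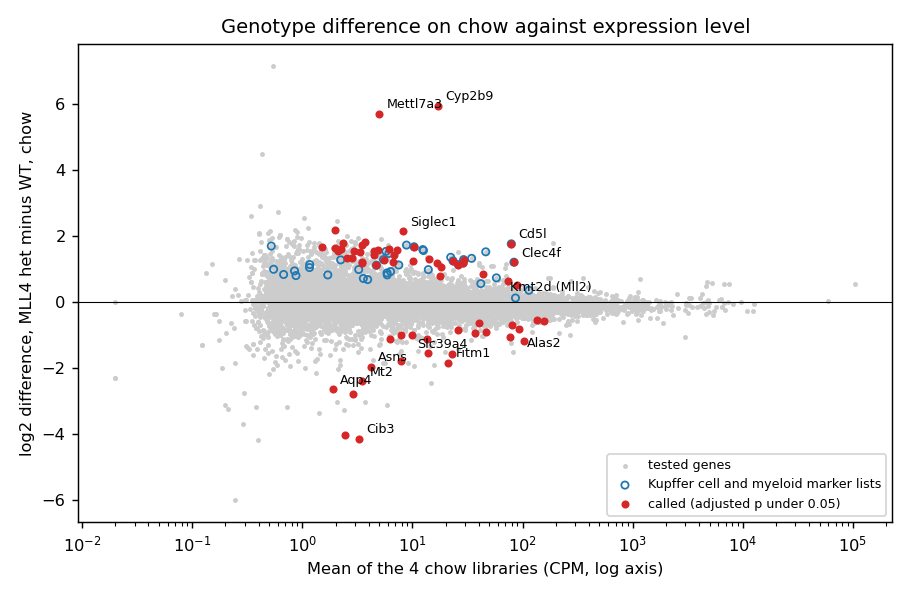
Each point is 1 tested gene, with its mean over the 4 chow libraries (CPM, log axis) across and its log2 difference, MLL4 het minus WT on chow, up. Called genes are red and the 38 tested markers of Kupffer and myeloid cells are ringed in blue; all 38 lie above 0, and Kmt2d lies at 0.01.

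The number of calls depended on single libraries. Without WT library 1 or WT library 2, which leaves 1 WT chow library assumed to vary like the other groups, 1 gene was called, Mettl7a3. The count was 5 without MLL4 het library 3 and 268 without MLL4 het library 4. It was 15 and 4 without WT HFD libraries 5 and 6, and 130 and 133 without MLL4 het HFD libraries 7 and 8. The HFD libraries enter the estimate of the spread, the scaling and the filter, but none of the group means compared on chow. DESeq2 called 227 genes (1.80%) at the same threshold, 95 higher and 132 lower, among them 58 of the 65. With the 4 chow libraries alone edgeR called 64 genes, among them 37 of the 65, and the other 28 did not pass. With robust estimation edgeR called 114 genes, among them 62 of the 65, and limma-voom called 24, all among the 65. The direction of all 65 genes was kept in each of the 17 alternative settings tried. That was nearly certain beforehand, since all 65 had chow libraries without overlap between the genotypes.

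In edgeR with all libraries, markers of Kupffer cells held more genes called on chow than any other list. Of 15 tested markers, 5 were called higher and 0 lower in MLL4 het livers on chow, beside 0.326% and 0.191% of all genes. Beside 24.0% of all genes, both MLL4 het libraries lay above both WT libraries for all 15 markers. Their median log2 difference was 1.20, beside 0.01 over all tested genes, and it lay between 1.11 and 1.28 in every alternative setting. Summed over the 15 markers the level was 797.8 and 666.2 CPM in MLL4 het chow livers, against 406.6 and 384.9 CPM in WT chow livers. In bulk RNA a change in the number of cells of a type and a change in RNA per cell cannot be told apart.

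Clec4f, a lectin that in mouse liver marks Kupffer cells, was at 123.5 and 109.6 CPM in MLL4 het chow livers, against 53.6 and 47.6 CPM in WT chow livers. It rose by 1.20 ± 0.17 on the log2 scale (edgeR adjusted p = 0.0407). Cd5l, a secreted scavenger receptor of tissue macrophages, was at 141.3 and 103 CPM in MLL4 het and at 36.9 and 35.3 CPM in WT chow livers. Its log2 difference was 1.76 ± 0.24 (edgeR adjusted p = 0.0356), with the MLL4 het libraries further apart from each other than the WT libraries. Cd5l was not called by edgeR with robust estimation.

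The 3 chains of complement C1q moved together. C1qa was at 38.98 and 41.0 CPM in MLL4 het and at 16.9 and 18.4 CPM in WT chow livers (log2 difference 1.18 ± 0.14, edgeR adjusted p = 0.0262). C1qb was at 42.4 and 40.3 CPM in MLL4 het and at 17.8 and 16.2 CPM in WT chow livers (log2 difference 1.28 ± 0.19, edgeR adjusted p = 0.0413). C1qc was at 36.2 and 35.5 CPM in MLL4 het and at 17.3 and 15.4 CPM in WT chow livers (log2 difference 1.13 ± 0.18, edgeR adjusted p = 0.0459). For each chain the libraries of a genotype lay close together, and the lower MLL4 het library stood far above the higher WT library.

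Among the markers that did not pass, Vsig4, a complement receptor of Kupffer cells, was at 36.4 and 27.7 CPM in MLL4 het and at 12.7 and 12.4 CPM in WT chow livers (edgeR adjusted p = 0.0528). Folr2 was at 16.2 and 10.9 CPM in MLL4 het and at 3.91 and 4.29 CPM in WT chow livers (edgeR adjusted p = 0.0570). Timd4, a receptor for dying cells, was at 12.2 and 5.78 CPM in MLL4 het and at 3.53 and 2.96 CPM in WT chow livers (edgeR adjusted p = 0.0960). The smallest difference was that of Nr1h3, which hepatocytes also express, with 91.9 and 87.98 CPM in MLL4 het and 87.1 and 78.4 CPM in WT chow livers. The count of called Kupffer markers was 0 without library 1, 2, 3 or 6, 1 without library 5, 10 without library 4, and 9 without library 7 or 8. With DESeq2 it was 10, and with the 4 chow libraries alone it was 8.

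**Figure D2:**
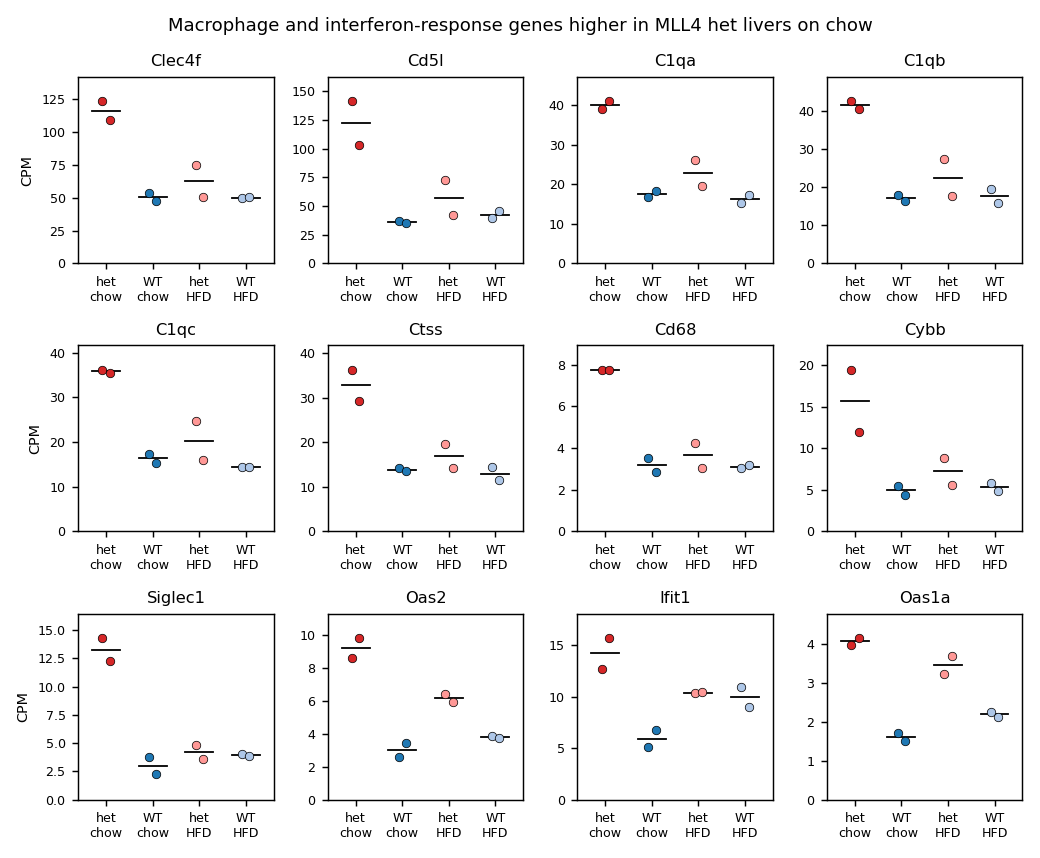
Levels (CPM, from 0) of 12 genes called higher in MLL4 het livers on chow, with 1 point a library, a bar at the mean of the 2 libraries of a group, and the groups MLL4 het chow, WT chow, MLL4 het HFD and WT HFD from left to right. Both MLL4 het chow points stand above both WT chow points in every panel, for example 123.5 and 109.6 against 53.6 and 47.6 CPM for Clec4f.

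Markers shared by macrophages, monocytes and other myeloid cells followed the same pattern. Of 23 tested myeloid markers, 3 were called higher and 0 lower, with a median log2 difference of 1.04. All 23 had both MLL4 het libraries above both WT libraries, beside 24.0% of all genes. Ly6c2 and S100a8 did not pass the filter on low counts. The summed level of the 25 markers in the count table, tested or not, was 350.1 and 302.0 CPM in MLL4 het chow livers. In WT chow livers it was 149.1 and 148.2 CPM. Together, the 38 tested Kupffer and myeloid markers held 8 of the 41 genes called higher (21.1% of the 38, beside 0.326% of all genes) and 0 of the 24 called lower.

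Ctss, the lysosomal protease cathepsin S, was at 36.4 and 29.4 CPM in MLL4 het and at 14.2 and 13.6 CPM in WT chow livers (log2 difference 1.24 ± 0.18, edgeR adjusted p = 0.0407). Cd68, a lysosomal glycoprotein of macrophages, was at 7.73 and 7.76 CPM in MLL4 het and at 3.53 and 2.84 CPM in WT chow livers (log2 difference 1.28 ± 0.20, edgeR adjusted p = 0.0459). Cybb, the membrane subunit of the phagocyte NADPH oxidase, was at 19.5 and 11.98 CPM in MLL4 het and at 5.48 and 4.41 CPM in WT chow livers (log2 difference 1.67 ± 0.28, edgeR adjusted p = 0.0497). The MLL4 het libraries were close to each other for Cd68 and far apart for Cybb. Lyz2, a lysozyme, did not pass, with 70.7 and 66.7 CPM in MLL4 het and 25.7 and 22.3 CPM in WT chow livers (edgeR adjusted p = 0.0544). Csf1r, the receptor for the macrophage growth factor CSF1, did not pass either, with 55.4 and 43.1 CPM in MLL4 het and 21.7 and 17.8 CPM in WT chow livers (edgeR adjusted p = 0.0750). Called myeloid markers numbered 0 without library 1, 2, 3, 5 or 6, 5 without library 4 and 8 without library 7 or 8. They numbered 6 with the 4 chow libraries alone, 9 with DESeq2 and 1 with limma-voom.

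In edgeR with all libraries, markers of sinusoidal endothelial cells, stellate cells, bile duct cells and lymphocytes held 0 called genes. An unadjusted p under 0.05 was reached by 3, 1, 1 and 3 of them, beside 15.3% of all genes. DESeq2 called 1 lymphocyte marker higher, as did edgeR without library 4, 7 or 8 and without a filter on low counts, and no alternative called a gene of the other 3 lists. Of 24 sinusoidal endothelial markers 0 were called in either direction, with a median log2 difference of 0.13, and their sum was 607.3 and 417.4 CPM in MLL4 het chow livers, against 483.0 and 430.3 CPM in WT chow livers. Library 3 alone stood above the WT libraries, and without it the median was -0.21, while without library 4 it was 0.38. Of 16 stellate cell markers 0 were called, at a median of 0.10 that was -0.03 without library 3, and of 6 bile duct cell markers 0 were called, at a median of -0.17. Of 9 tested lymphocyte markers 0 were called, at a median of 0.80 that was 0.35 without library 1 and 0.40 without library 3. The 18 lymphocyte markers in the count table, tested or not, had a low sum. It was 31.7 and 22.1 CPM in MLL4 het against 13.9 and 17.2 CPM in WT chow livers. Ptprc, the leukocyte antigen CD45 that macrophages carry too, was at 17.1 and 11.2 CPM in MLL4 het and at 5.92 and 6.09 CPM in WT chow livers (edgeR adjusted p = 0.0720). Of 25 hepatocyte markers 0 were called, with a median of -0.16. How far the endothelial and lymphocyte levels take part in the macrophage result was not tested.

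Siglec1, Cd300e, C3ar1, P2ry13, Cd44, Fyb, Vav1, Cfp, Lgmn and the Pira2 row are called genes outside the marker lists, put together by their known roles after the calls were seen, with no test of a theme. Siglec1, a sialic acid-binding lectin of macrophages, was at 14.3 and 12.3 CPM in MLL4 het and at 3.78 and 2.26 CPM in WT chow livers, and rose by 2.14 ± 0.24 on the log2 scale (edgeR adjusted p = 0.0247). Cd300e, an immune receptor of monocytes, was at 3.83 and 2.72 CPM in MLL4 het and at 0.693 and 0.754 CPM in WT chow livers, with a log2 difference of 2.16 ± 0.37 (edgeR adjusted p = 0.0497). In both of these the groups were well apart, although their levels were low.

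C3ar1, the receptor for the complement fragment C3a, was at 3.61 and 3.20 CPM in MLL4 het and at 1.20 and 1.04 CPM in WT chow livers. P2ry13, a receptor for ADP, was at 3.83 and 3.47 CPM in MLL4 het and at 1.32 and 0.812 CPM in WT chow livers. Cd44, a receptor for hyaluronan, was at 12.97 and 8.71 CPM in MLL4 het and at 3.91 and 3.42 CPM in WT chow livers. These 3 genes had log2 differences of 1.60, 1.78 and 1.56 (edgeR adjusted p = 0.0455, 0.0465 and 0.0463). Fyb and Vav1, signalling proteins of blood cells, had log2 differences of 1.56 and 1.55 (edgeR adjusted p = 0.0407 and 0.0494). Cfp, which encodes the complement regulator properdin, was at 22.96 and 23 CPM in MLL4 het and at 11.0 and 9.45 CPM in WT chow livers (log2 difference 1.17, edgeR adjusted p = 0.0322). Lgmn, a lysosomal protease, was at 60.3 and 51.4 CPM in MLL4 het and at 32.2 and 29.7 CPM in WT chow livers (log2 difference 0.85, edgeR adjusted p = 0.0464). Cfp and Lgmn were named after their values were seen. In a row that joins Pira2 with related receptor genes, counts cannot be divided between the genes, and its log2 difference was 1.55 (edgeR adjusted p = 0.0482). The call of Siglec1 ended without library 1, 2, 3 or 6, and those of Cd300e and the genes from C3ar1 to the Pira2 row without library 1, 2, 3, 5 or 6, with edgeR adjusted p up to 0.333.

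Genes induced by interferon formed a smaller group. Of 36 tested genes, 3 were called higher and 0 lower, beside 0.326% and 0.191% of all genes. Both MLL4 het libraries lay above both WT libraries for 27 of the 36, beside 24.0% of all genes. The median log2 difference of the list was 0.56. Oas2 and Oas1a encode oligoadenylate synthetases, which sense double-stranded RNA. Oas2 was at 8.58 and 9.80 CPM in MLL4 het and at 2.58 and 3.42 CPM in WT chow livers (log2 difference 1.61 ± 0.18, edgeR adjusted p = 0.0247). Oas1a was at 3.97 and 4.15 CPM in MLL4 het and at 1.70 and 1.51 CPM in WT chow livers (log2 difference 1.34 ± 0.21, edgeR adjusted p = 0.0459). For both genes the libraries of a genotype lay close together. Ifit1, which binds foreign RNA, was at 12.7 and 15.7 CPM in MLL4 het and at 5.10 and 6.78 CPM in WT chow livers (log2 difference 1.25 ± 0.18, edgeR adjusted p = 0.0407).

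Isg15, a ubiquitin-like protein, did not pass, and was at 9.07 and 14.2 CPM in MLL4 het and at 5.36 and 6.26 CPM in WT chow livers (edgeR adjusted p = 0.0992). An unadjusted p under 0.05 was reached in edgeR by 8 of 18 genes of antigen presentation, beside 15.3% of all genes. Of these 18 genes edgeR called 0, and DESeq2 called 1 higher and 1 lower. Their median was 0.14, which was 0.01 without library 4 and 0.27 without library 3. H2-Aa, a class II molecule, was at 19.9 and 24.3 CPM in MLL4 het and at 15.2 and 12.9 CPM in WT chow livers (edgeR adjusted p = 0.181). The number of called interferon genes was 0 without library 1, 2, 3 or 6, 1 without library 5, 1 with the 4 chow libraries alone, 1 with limma-voom and 6 with DESeq2.

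Promoters of 4 genes called higher and 1 called lower are shown because they hold a short motif of a factor known to act in macrophages, in the interferon response or under amino acid shortage. The sequences are those of RefSeq on build GRCm38.p6, from 250 bases before to 50 bases after the annotated start, on the strand of the gene, and that build is not the one on which the reads were counted. Capitals mark GAGGAAGT, the core bound by PU.1, in C1qc (chr4:136892865-136893164, minus strand) and Ctss (chr3:95526536-95526835, plus strand). They mark GAAANNGAA, the interferon-stimulated response element, in Ifit1 (chr19:34640639-34640938, plus strand) and Oas1a (chr5:120907476-120907775, minus strand), where neighbouring matches overlap, and TGATGNAA, an element bound by ATF4, in Asns (chr6:7693160-7693459, minus strand). Matches were sought on both strands, so some appear as the reverse complement.
C1qc: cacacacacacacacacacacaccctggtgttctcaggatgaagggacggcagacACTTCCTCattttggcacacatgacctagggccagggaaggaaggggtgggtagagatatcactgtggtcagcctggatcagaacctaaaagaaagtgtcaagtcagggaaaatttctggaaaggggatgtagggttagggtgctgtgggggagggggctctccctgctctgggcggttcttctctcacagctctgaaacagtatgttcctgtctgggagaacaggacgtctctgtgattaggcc
Ctss: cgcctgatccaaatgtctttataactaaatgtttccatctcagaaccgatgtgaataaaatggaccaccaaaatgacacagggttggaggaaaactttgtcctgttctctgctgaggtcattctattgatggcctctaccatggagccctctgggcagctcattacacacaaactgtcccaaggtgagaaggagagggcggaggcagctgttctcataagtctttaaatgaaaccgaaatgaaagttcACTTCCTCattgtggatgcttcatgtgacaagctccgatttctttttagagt
Ifit1: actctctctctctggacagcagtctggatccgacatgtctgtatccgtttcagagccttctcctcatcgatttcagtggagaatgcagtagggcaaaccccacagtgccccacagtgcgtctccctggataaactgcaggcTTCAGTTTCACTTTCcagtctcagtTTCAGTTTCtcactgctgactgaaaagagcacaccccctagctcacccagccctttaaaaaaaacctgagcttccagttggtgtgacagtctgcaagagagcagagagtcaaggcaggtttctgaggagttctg
Oas1a: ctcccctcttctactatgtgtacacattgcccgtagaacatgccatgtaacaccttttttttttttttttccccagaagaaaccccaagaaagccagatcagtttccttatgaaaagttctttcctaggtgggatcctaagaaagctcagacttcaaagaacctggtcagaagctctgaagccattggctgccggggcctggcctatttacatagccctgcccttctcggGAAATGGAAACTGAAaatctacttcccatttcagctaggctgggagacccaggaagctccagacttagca
Asns: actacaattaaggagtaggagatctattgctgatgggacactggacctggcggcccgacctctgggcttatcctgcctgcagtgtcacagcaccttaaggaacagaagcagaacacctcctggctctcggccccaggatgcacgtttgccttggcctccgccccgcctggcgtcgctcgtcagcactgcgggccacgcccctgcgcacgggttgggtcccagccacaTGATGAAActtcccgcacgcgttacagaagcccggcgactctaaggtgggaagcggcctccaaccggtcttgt

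The PU.1 motif was found in 6 of 34 promoters of genes called higher (17.6%), in 0 of 19 promoters of genes called lower and in 3.65% of the 10004 promoters of all tested genes with an entry. Its 6 genes were C1qc, Ctss, Cd300ld, Evi2b, Pira2 and Vav1, and in C1qc it starts 195 bases before the annotated start. The interferon element was found in 8 of the 34 (23.5%), in 2 of the 19 (10.5%) and in 8.77% of all. Those of the called-higher genes were Ifit1, Ifit3b, Oas1a, Cybb, Ctss, Fyb, Slc7a8 and Tmsb4x, and those of the called-lower genes were Alas2 and Mfsd2a. In Ctss the interferon element lies 21 bases before the start, in lower case, and does not overlap the PU.1 motif. The ATF4 element was found in 1 of the 34 (2.94%), namely Cd5l, in 2 of the 19 (10.5%), namely Asns and Map3k13, and in 2.78% of all, and in Asns it overlaps a GAANNTTC heat shock element.

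The metal response element, TGCACNC or TGCGCNC, was found in 32.4% of promoters of genes called higher, 52.6% of those called lower and 39.7% of all. The E-box CACGTG was found in 2.94% of the higher set, in 0 of the lower set and in 11.7% of all. The heat shock element was found in 8.82% and 15.8% of the higher and lower sets and in 7.18% of all. The cAMP element TGACGTCA and the D-box, TTATGTAA or TTACGTAA, were found in 0 promoters of either set and in 3.45% and 0.91% of all. These matches are descriptions of letters, and no test was made of them. The PU.1, interferon, ATF4 and metal motifs were chosen after the called genes were seen.

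Among called genes the largest fitted rises were those of Cyp2b9 and Mettl7a3. Cyp2b9, a cytochrome P450 that in mouse liver is higher in females, was at 32.9 and 34.6 CPM in MLL4 het chow livers, against 0.882 and 0.232 CPM in WT chow livers. It rose by 5.93 ± 0.98 on the log2 scale (edgeR adjusted p = 0.0482). On HFD its level was 11.8 and 0.853 CPM in MLL4 het and 5.02 and 9.95 CPM in WT livers, so that libraries of 1 group differed widely there. A close relative, Cyp2b13, was at 1.63 and 0.544 CPM in MLL4 het chow livers and at 0 CPM in both WT chow libraries, where a count of 0 allows up to 0.189 and 0.174 CPM, and it did not pass (edgeR adjusted p = 0.154). Reads of such near copies may be shared between them. Cyp2b10, the drug-induced member, was at 25.1 and 20.1 CPM in MLL4 het and at 23 and 23.7 CPM in WT chow livers, with overlapping groups. Of 34 xenobiotic cytochromes P450, 19 had both MLL4 het libraries below both WT libraries, beside 21.9% of all genes. Cyp2b9 was the 1 called gene among these 34, beside 0.326% of all genes called higher, at a list median of -0.24. It was also the 1 called gene among 32 sex-dependent targets of growth hormone, whose median was -0.14. In each of these 2 lists DESeq2 called 1 gene higher and 2 lower. Cyp2b9 was not called with limma-voom or by edgeR with robust estimation. Its call ended without library 1, 2, 3, 5 or 6, with edgeR adjusted p up to 0.355.

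Mettl7a3, a methyltransferase-like gene, was at 9.92 and 9.73 CPM in MLL4 het chow livers, against 0.378 and 0 CPM in WT chow livers, where 3 counts are 0.189 and 0.174 CPM. Its log2 difference was 5.70 ± 0.47 (edgeR adjusted p = 0.00793), and it was called in each of the 17 alternative settings. Since WT library 2 held 0 counts, the fitted size depended on the WT library kept, with 10.33 without library 1 and 4.67 without library 2. The row that joins Mettl7a2 with Higd1c and AB099516 was at 23.3 and 25.9 CPM in MLL4 het and at 12.4 and 11.4 CPM in WT chow livers (log2 difference 1.05 ± 0.13, edgeR adjusted p = 0.0262). The call of the Mettl7a2 row ended without library 1, 2, 3 or 6, with edgeR adjusted p up to 0.277. Both rows separated the genotypes on HFD as well, with log2 differences of 6.62 and 1.44 (edgeR adjusted p = 0.00275 and 0.00466). Mettl7a3 was at 9.44 and 8.53 CPM in MLL4 het and at 0.0577 and 0.109 CPM in WT HFD livers. Mettl7a1, next to Mettl7a3 in the gene order, was at 267.9 and 289.2 CPM in MLL4 het and at 315.7 and 312.5 CPM in WT chow livers. Its log2 difference was -0.17 (edgeR adjusted p = 0.368). The Mettl7a genes are near copies of each other, and how reads with several matches were counted is not given in the sources used here. The division of reads between them is therefore uncertain.

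The Mettl7a3 and Mettl7a2 rows lie on chromosome 15, which also holds Kmt2d. Counted along the gene order of GRCm38.p6, they were the 24th and 25th tested genes from Kmt2d on one side. Of the 100 tested genes nearest to Kmt2d, 50 on each side, these 2 were called on chow and 3 on HFD, the other being Gpd1, glycerol-3-phosphate dehydrogenase. The median log2 difference of the 100 on chow was -0.0003, and 23 reached an unadjusted p under 0.05, beside 15.3% of all genes. Chromosome 15 held 5 called genes of 495 tested (1.01%), beside 0.516% over all genes, 1.17% on chromosome 14 and 1.05% on chromosome X, the other 3 being Fyb, Slc39a4 and Tob2, at 409, 216 and 125 tested genes from Kmt2d. This neighbourhood was chosen after the values were seen.

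Kdm2b, a histone lysine demethylase, was at 21.7 and 18.6 CPM in MLL4 het and at 8.00 and 8.29 CPM in WT chow livers (log2 difference 1.31 ± 0.12, edgeR adjusted p = 0.0113). Its call ended only without WT library 1 or 2 among the 8 libraries (edgeR adjusted p up to 0.143). On HFD it was at 8.74 and 8.25 CPM in MLL4 het and at 8.48 and 8.37 CPM in WT livers, with a log2 difference of 0.01. Nnt, the mitochondrial nicotinamide nucleotide transhydrogenase, had the smallest called rise, with 104.5 and 105.5 CPM in MLL4 het and 77.3 and 70.9 CPM in WT chow livers (log2 difference 0.50 ± 0.08, edgeR adjusted p = 0.0482). Without library 1, 2, 3, 4, 5 or 6 it did not pass, with edgeR adjusted p up to 0.373. Kdm2b and Nnt were named after their values were seen.

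Among the genes lower in MLL4 het livers on chow, Fitm1 and Mfsd2a belong to lipid storage and transport. Of 31 tested genes of lipid droplets and targets of PPARG, these 2 were called lower and 0 higher, beside 0.191% and 0.326% of all genes. DESeq2 called 5 of the 31 lower, edgeR without a filter on low counts 4 and limma-voom 0. With robust estimation edgeR called 1 lower and did not call Fitm1. With the 4 chow libraries alone it called 1 lower and did not call Mfsd2a. Both MLL4 het libraries lay below both WT libraries for 20 of the 31, beside 21.9% of all genes. The median log2 difference of the list was -0.23. Fitm1, which moves triglyceride into droplets, was at 10.1 and 8.37 CPM in MLL4 het and at 29.6 and 36.6 CPM in WT chow livers. It fell by 1.84 ± 0.31 on the log2 scale (edgeR adjusted p = 0.0482). Mfsd2a, which carries lysophosphatidylcholine into cells, was at 5.74 and 7.35 CPM in MLL4 het and at 12.5 and 13.7 CPM in WT chow livers, and fell by 0.997 ± 0.13 on the log2 scale (edgeR adjusted p = 0.0351). Both were separated by genotype on HFD too, and both were called there.

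Pparg itself, the nuclear receptor of fat storage, was at 9.78 and 9.32 CPM in MLL4 het and at 11.1 and 11.3 CPM in WT chow livers (log2 difference -0.23, edgeR adjusted p = 0.549). Plin2, a coat protein of lipid droplets, was at 314.9 and 334.8 CPM in MLL4 het and at 474.3 and 378.2 CPM in WT chow livers (log2 difference -0.39, edgeR adjusted p = 0.188). Cidec, which enlarges droplets, was at 1.13 and 2.31 CPM in MLL4 het and at 2.52 and 3.48 CPM in WT chow livers (log2 difference -0.79, edgeR adjusted p = 0.523). None of these 3 passed on chow. On HFD Plin2 and Cidec were called lower (log2 differences -0.76 and -2.93, edgeR adjusted p = 0.0455 and 0.0317), and 6 genes of the list were called lower there. The calls of Fitm1 and Mfsd2a on chow ended without library 1, 2, 3, 5 or 6, and that of Fitm1 also without library 4, with edgeR adjusted p up to 0.326.

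**Figure D3:**
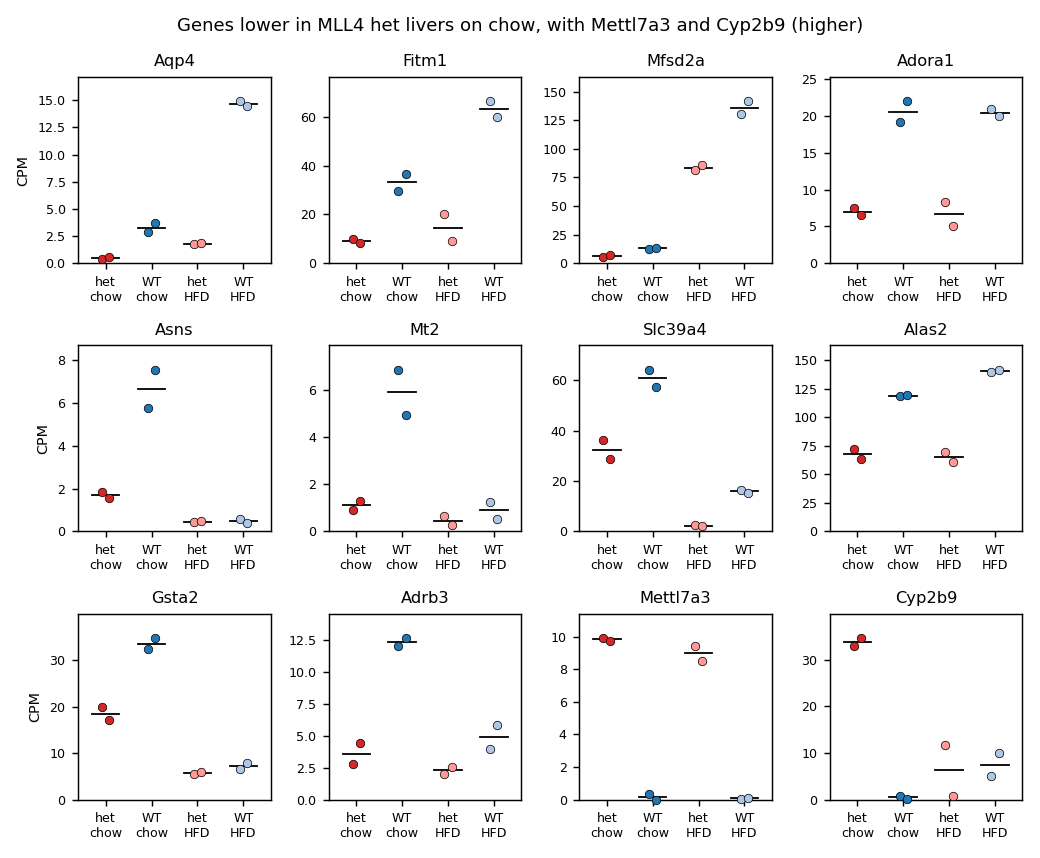
Levels (CPM, from 0) of 10 genes called lower in MLL4 het livers on chow and of Mettl7a3 and Cyp2b9, which were higher, with 1 point a library, a bar at the mean of the 2 libraries of a group, and the groups MLL4 het chow, WT chow, MLL4 het HFD and WT HFD from left to right. Adora1 stands at about the same levels on both diets within a genotype, while Asns and Mt2 are low in all 4 HFD libraries.

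Genes of zinc handling and amino acid supply held a few called falls. Of 13 tested zinc transporters and metallothioneins, Slc39a4 and Mt2 were called lower and 0 higher, beside 0.191% and 0.326% of all genes. DESeq2 called 3 of the 13 lower, and limma-voom called 1. The list median was -0.02 and turned to 0.0035 without library 1 and to 0.0042 with the 4 chow libraries alone. Slc39a4, an importer of zinc, was at 36.1 and 28.8 CPM in MLL4 het and at 64.1 and 57.4 CPM in WT chow livers (log2 difference -0.90 ± 0.13, edgeR adjusted p = 0.0407). Mt2, a metallothionein that binds zinc and copper, was at 0.921 and 1.29 CPM in MLL4 het and at 6.87 and 4.93 CPM in WT chow livers (log2 difference -2.40 ± 0.38, edgeR adjusted p = 0.0464). Mt2 was also the 1 called gene of 32 acute phase genes, beside 0.191% of all genes called lower. DESeq2 called 1 of the 32 lower and 1 higher. Their median of 0.0032 changed sign with RLE factors, DESeq2, limma-voom, both other filters and without library 1, 2, 4 or 5. It ran from -0.11 to 0.04 over all alternatives.

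Asns, asparagine synthetase and a target of ATF4, was at 1.84 and 1.57 CPM in MLL4 het and at 5.73 and 7.54 CPM in WT chow livers. It fell by 1.96 ± 0.24 on the log2 scale (edgeR adjusted p = 0.0262). The promoter of Asns is among those shown. Of 20 genes of the ATF4 response and serine synthesis Asns was the 1 called, beside 0.191% of all genes called lower. DESeq2 called 3 of the 20 lower. The list median was -0.15, with -0.06 without library 2 and -0.07 without library 4. In that list 6 genes were lower and 1 was higher at an unadjusted p under 0.05, beside 15.3% of all genes in either direction. Its 23 members in the count table, tested or not, summed to 1263 and 1278 CPM in MLL4 het chow livers. In WT chow livers they summed to 1495 and 1671 CPM. On HFD Asns was at 0.429 and 0.498 CPM in MLL4 het and at 0.577 and 0.383 CPM in WT livers, low in all libraries. The calls of Asns, Slc39a4 and Mt2 ended without library 1, 2, 3 or 6, and those of Slc39a4 and Mt2 also without library 5, with edgeR adjusted p up to 0.277.

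Alas2, the erythroid form of the enzyme that starts haem synthesis, was at 72.1 and 63.8 CPM in MLL4 het and at 118.8 and 119.6 CPM in WT chow livers (log2 difference -0.81 ± 0.10, edgeR adjusted p = 0.0262). It was the 1 called gene of 5 tested blood markers, beside 0.191% of all genes called lower. The 5 markers had a median of 0.16 (-0.10 without library 2). The 8 blood markers in the count table, tested or not, summed to 315.5 and 342.2 CPM in MLL4 het chow livers. In WT chow livers they summed to 408.2 and 316.2 CPM, with overlapping groups. Gsta2, a glutathione transferase, was at 19.9 and 17.1 CPM in MLL4 het and at 32.3 and 34.8 CPM in WT chow livers (log2 difference -0.86 ± 0.13, edgeR adjusted p = 0.0407). It was the 1 called gene of 33 genes of phase II metabolism and the NRF2 response, beside 0.191% of all genes called lower. DESeq2 called 2 of the 33 lower. The list median was -0.05, with -0.0073 without library 4 and -0.13 without library 1. The call of Gsta2 ended without library 1, 2, 3, 5 or 6, and that of Alas2 without library 1, 2, 3 or 6, with edgeR adjusted p up to 0.316.

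The largest falls were in genes of low level. Cib3, a calcium-binding protein, was at 0.213 and 0.476 CPM in MLL4 het and at 3.91 and 8.46 CPM in WT chow livers (log2 difference -4.13 ± 0.60, edgeR adjusted p = 0.0407). Gm3893, a predicted gene, was at 0.0709 and 0.476 CPM in MLL4 het and at 4.41 and 4.81 CPM in WT chow livers (log2 difference -4.02 ± 0.57, edgeR adjusted p = 0.0407). The MLL4 het values of both lie near the level of 3 counts, 0.213 and 0.204 CPM. Dct, dopachrome tautomerase of melanin synthesis, was at 0.992 and 0.476 CPM in MLL4 het and at 4.6 and 5.51 CPM in WT chow livers (log2 difference -2.78 ± 0.41, edgeR adjusted p = 0.0429). Aqp4, a water channel, was at 0.425 and 0.612 CPM in MLL4 het and at 2.84 and 3.71 CPM in WT chow livers (log2 difference -2.64 ± 0.28, edgeR adjusted p = 0.0222).

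Receptors and kinases were also among the falls. Adora1, an adenosine receptor, was at 7.51 and 6.53 CPM in MLL4 het and at 19.2 and 21.97 CPM in WT chow livers (log2 difference -1.55 ± 0.20, edgeR adjusted p = 0.0323). Adrb3, a beta-adrenergic receptor, was at 2.76 and 4.42 CPM in MLL4 het and at 11.97 and 12.6 CPM in WT chow livers (log2 difference -1.77 ± 0.25, edgeR adjusted p = 0.0407). Map3k13, a kinase of stress signalling, was at 8.15 and 14.8 CPM in MLL4 het and at 34.7 and 34.2 CPM in WT chow livers (log2 difference -1.58 ± 0.24, edgeR adjusted p = 0.0432). The MLL4 het libraries differed most from each other for Map3k13. D14Ertd449e, now called Tmem254a, stood at a high level and held the smallest adjusted p of the falls, with 61.6 and 63.8 CPM in MLL4 het and 141.4 and 143.5 CPM in WT chow livers (log2 difference -1.18 ± 0.10, edgeR adjusted p = 0.00793). Its call ended only without WT library 1 or 2, with edgeR adjusted p = 0.143 at most, while the calls of Cib3, Gm3893, Dct, Aqp4, Adora1, Adrb3 and Map3k13 ended without library 1, 2, 3 or 6. Those of Cib3, Dct, Adora1 and Map3k13 also ended without library 5, and that of Dct without library 4, with edgeR adjusted p up to 0.293.

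The remaining falls were smaller. Mknk2, a kinase downstream of MAP kinases, was at 42.7 and 57.8 CPM in MLL4 het and at 94.95 and 112.4 CPM in WT chow livers (log2 difference -1.05, edgeR adjusted p = 0.0453). Tob2, an antiproliferative protein, was at 23.2 and 27.4 CPM in MLL4 het and at 48.8 and 48.8 CPM in WT chow livers (log2 difference -0.95, edgeR adjusted p = 0.0262). Rhou, a small GTPase, Aldh1b1, a mitochondrial aldehyde dehydrogenase, Ccbl2, an aminotransferase of kynurenine now called Kyat3, and Rnf125, a ubiquitin ligase, had log2 differences of -0.71, -0.64, -0.58 and -0.53 (edgeR adjusted p = 0.0319, 0.0432, 0.0482 and 0.0482). These last 4 were expressed at 31.0 CPM or more in every chow library and were named after their values were seen. All 6 calls ended without library 1, 2, 3 or 6, and all but that of Tob2 without library 5, with edgeR adjusted p up to 0.348.

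In edgeR with all libraries 7 metabolic lists held 0 called genes and had medians below 0. Of 25 genes of cholesterol synthesis 0 were called, with a median of -0.32. Both MLL4 het libraries lay below both WT libraries for 20 of the 25, beside 21.9% of all genes. A log2 difference above 0 was found for 0 of the 25, beside 52.5% of all genes. Hmgcs1, HMG-CoA synthase, was at 311.6 and 403.8 CPM in MLL4 het and at 483.0 and 615.0 CPM in WT chow livers (edgeR adjusted p = 0.186). Of 28 genes of the urea cycle and amino acid breakdown 0 were called, at a median of -0.23. Of these, 24 lay below in both libraries, beside the same 21.9% of all genes. Asl, argininosuccinate lyase, was at 261.3 and 275.4 CPM in MLL4 het and at 341.3 and 363.7 CPM in WT chow livers (edgeR adjusted p = 0.187). DESeq2 called 1 gene of each list lower, and edgeR without library 4 called 3 of the urea cycle list lower. At an unadjusted p under 0.05 stood 4 and 8 genes of these lists, all lower, beside 15.3% of all genes in either direction. The median of cholesterol synthesis was -0.21 without library 2. Pck1, which starts gluconeogenesis, was at 1391 and 1576 CPM in MLL4 het and at 2508 and 2139 CPM in WT chow livers (log2 difference -0.65, edgeR adjusted p = 0.0611), and of 27 genes of gluconeogenesis and glycogen 0 were called at a median of -0.18, which was -0.09 without library 2. DESeq2 called 1 gene of that list lower, and edgeR called 2 lower without library 4 and 1 lower with robust estimation or without a filter.

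Genes of PPARA and fatty acid oxidation (36 tested, median -0.14), bile acid and sterol efflux (26, -0.08), the pericentral Wnt programme (20, -0.18) and fatty acid synthesis (24, -0.07) held 0 called genes in edgeR with all libraries. At an unadjusted p under 0.05, 5, 3, 8 and 1 were lower and 1, 1, 1 and 0 higher. Over all genes that share was 15.3% in either direction. The medians of fatty acid synthesis and of PPARA changed sign with single libraries. That of fatty acid synthesis was 0.05 without library 2 or 4, -0.23 without library 1 and -0.34 without library 3. That of PPARA was 0.0037 without library 3, -0.02 without library 1 and -0.32 without library 4, while the pericentral median was -0.35 without library 4 and that of bile acids -0.04 without library 3. Of the pericentral list 4 genes were lower with DESeq2 or without a filter, and 2 with robust estimation or without library 4. One alternative or more also called 1 gene lower in each of the other 3 lists, but DESeq2 called 0 there. Pdk4, a PPARA target that restrains glucose oxidation, was at 11.0 and 16.9 CPM in MLL4 het and at 36.0 and 39.0 CPM in WT chow livers (edgeR adjusted p = 0.0960). Oat, a pericentral aminotransferase, was at 637.7 and 666.8 CPM in MLL4 het and at 1017 and 970.1 CPM in WT chow livers (edgeR adjusted p = 0.0664). Cyp7a1, which limits the rate of bile acid synthesis, was at 63.6 and 56.7 CPM in MLL4 het and at 48.8 and 57.6 CPM in WT chow livers, with overlapping groups (edgeR adjusted p = 0.713). Fasn, fatty acid synthase, was at 295.3 and 180.0 CPM in MLL4 het and at 216.7 and 335.6 CPM in WT chow livers, and Srebf1, a regulator of lipogenesis, was at 214.9 and 125.1 CPM in MLL4 het and at 114.4 and 208.2 CPM in WT chow livers. For both genes the libraries of a genotype differed more than the genotypes did.

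**Figure D4:**
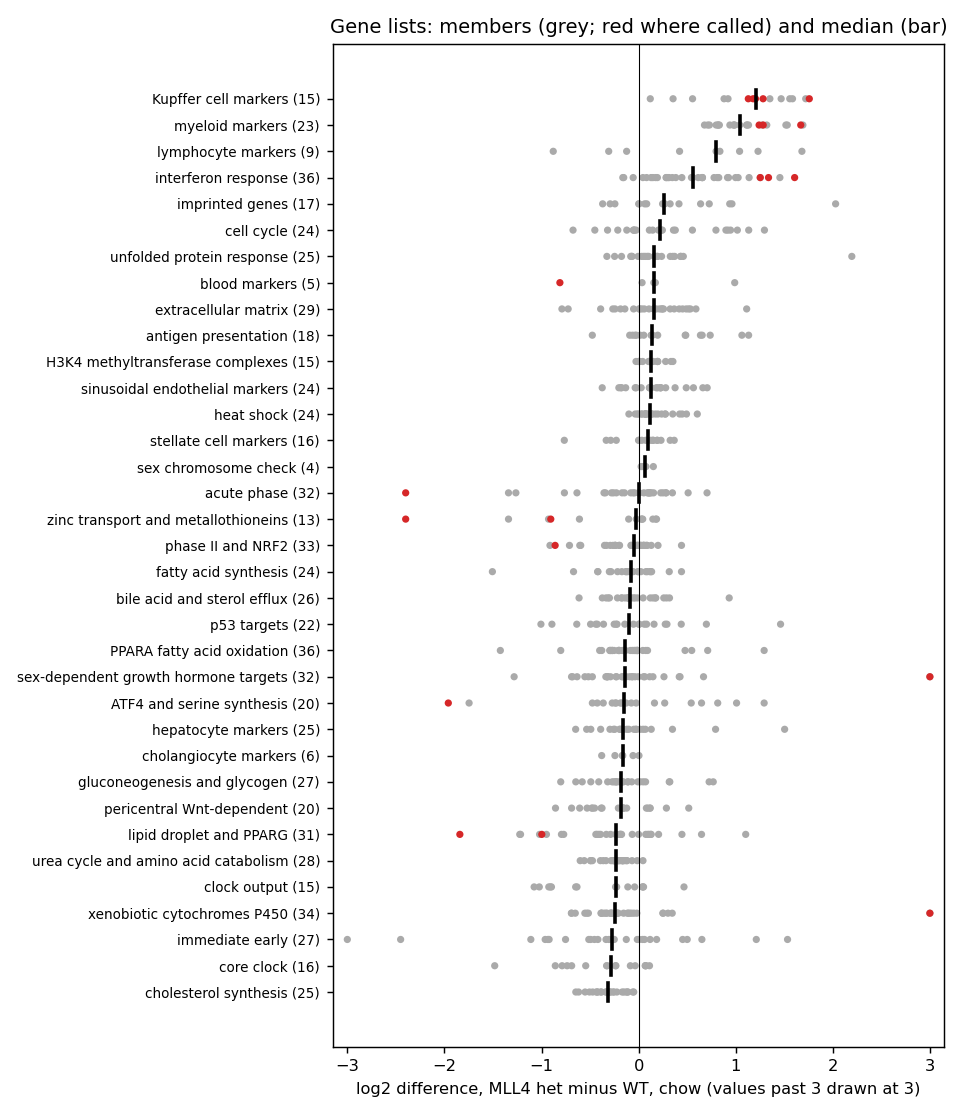
Each row is a gene list with the number of its tested members, and each point is the log2 difference of a member, MLL4 het minus WT on chow, with called genes in red, the list median as a black bar and values past 3 drawn at 3. The Kupffer, myeloid, lymphocyte and interferon lists stand at the top with medians of 1.20, 1.04, 0.80 (0.35 without library 1) and 0.56, and the other lists have medians between -0.32 and 0.26; lists with fewer than 4 tested members are left out.

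In edgeR with all libraries the clock and immediate early lists held 0 called genes. DESeq2 called 3 core clock, 2 clock output and 2 immediate early genes lower, and edgeR on the 4 chow libraries alone called 2 core clock genes and 1 immediate early gene lower. Without library 4, 2 core clock genes were called lower, and without library 7 or 8, 3 immediate early genes. At an unadjusted p under 0.05 stood 6 core clock, 4 clock output and 7 immediate early genes that were lower, and 0, 1 and 1 that were higher. Over all genes that share was 15.3% in either direction. Of 16 core clock genes the median was -0.28, and of 15 clock output genes it was -0.24, or -0.43 and -0.41 without libraries 1 and 3. Per1, a clock repressor that also responds to acute signals, was at 4.68 and 7.14 CPM in MLL4 het and at 15.9 and 17.2 CPM in WT chow livers (edgeR adjusted p = 0.0651). Per2 was at 10.2 and 4.97 CPM in MLL4 het and at 6.68 and 7.31 CPM in WT chow livers, and Arntl at 26.4 and 29.0 CPM in MLL4 het and at 25.5 and 27.3 CPM in WT chow livers, both with overlapping groups. Of 27 immediate early genes the median was -0.27, with -0.51 to -0.17 over left-out libraries, and Nr4a1, a nuclear receptor induced by acute signals, was at 4.61 and 4.56 CPM in MLL4 het and at 28.9 and 21.4 CPM in WT chow livers (edgeR adjusted p = 0.0607).

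Of 24 heat shock genes the median was 0.12, of 25 genes of the unfolded protein response 0.16, of 22 p53 targets -0.10, of 24 cell cycle genes 0.22, of 29 extracellular matrix genes 0.15 and of 17 imprinted genes 0.26. None of these lists held a called gene in edgeR with all libraries. There 0, 2, 6, 4, 3 and 4 genes reached an unadjusted p under 0.05, beside 15.3% of all genes. Without library 3 the medians of heat shock and of the unfolded protein response were -0.0054 and -0.08, and without library 4 they were 0.21 and 0.26. Over left-out libraries the cell cycle median ran from 0.03 to 0.40, that of the matrix from 0.06 to 0.30, that of imprinted genes from 0.09 to 0.30 and that of p53 targets from -0.19 to -0.08. DESeq2 called 1 gene of the unfolded protein response higher and 0 in the other 5 lists, and without library 4 edgeR called 2 of the unfolded protein response and 1 of heat shock higher. Without library 7 or 8, 1 p53 target was called lower, and without a filter 1 matrix gene higher. Derl3, of the unfolded protein response, was at 2.06 and 4.63 CPM in MLL4 het and at 0.882 and 0.580 CPM in WT chow livers (edgeR adjusted p = 0.0960). Col5a2, a fibrillar collagen chain, was at 6.24 and 5.72 CPM in MLL4 het and at 3.34 and 2.20 CPM in WT chow livers (edgeR adjusted p = 0.101). Only 2 of 17 pancreas and adipose markers passed the filter on low counts, among them the elastase Cela1 with 16.4 and 21.0 CPM in MLL4 het and 23.9 and 28.4 CPM in WT chow livers.

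The same genotype contrast in the HFD libraries gave 56 called genes (0.445%), 12 higher (0.0953%) and 44 lower (0.349%) in MLL4 het livers, and 13.8% of all genes reached an unadjusted p under 0.05. DESeq2 called 241 (1.91%). The edgeR count on HFD was 12 without library 1 or 2, 13, 18 and 15 without libraries 5, 6 and 8, 100 and 99 without libraries 3 and 4, and 177 without library 7. Of the 65 genes called on chow 11 were called in the same direction on HFD, which is 16.9% of the chow calls and 19.6% of the HFD calls. They were Aqp4, Dct, Adora1, Fitm1, Mfsd2a, Slc39a4, Alas2, Aldh1b1 and Rnf125, all lower, and Mettl7a3 and the Mettl7a2 row, both higher. Aqp4 was at 1.77 and 1.85 CPM in MLL4 het and at 14.9 and 14.5 CPM in WT HFD livers, and Slc39a4 at 2.52 and 1.99 CPM in MLL4 het and at 16.5 and 15.3 CPM in WT HFD livers. The log2 difference of Slc39a4 was -2.79 on HFD and -0.90 on chow, and that of Adora1 was -1.58 on HFD and -1.55 on chow.

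The genes called on chow were then read in the HFD libraries. Of the 41 that were higher, 35 had a log2 difference above 0 on HFD, beside 50.4% of all genes, but 2 were called and 19 had both MLL4 het libraries above both WT libraries, beside 22.8% of all genes. Their median log2 difference was 0.33 on HFD and 1.41 on chow, by which they had been chosen. Of the 24 that were lower on chow, 23 had a log2 difference below 0 on HFD, 9 were called and 18 had both MLL4 het libraries below both WT libraries, beside 24.3% of all genes, with a median of -0.64 on HFD and -1.12 on chow. For the whole Kupffer list the median was 0.49 on HFD with 0 of 15 called, and the sums were 543.1 and 451.0 CPM in MLL4 het and 370.1 and 386.0 CPM in WT HFD livers. All 15 had a log2 difference above 0 on HFD, beside 50.4% of all genes. For 9 of the 15 both MLL4 het libraries lay above both WT libraries, beside 22.8% of all genes. Clec4f was at 74.9 and 50.3 CPM in MLL4 het and at 49.5 and 50.2 CPM in WT HFD livers, and Cd5l at 72.4 and 42.4 CPM in MLL4 het and at 39.2 and 45.4 CPM in WT HFD livers. In Clec4f and Cd5l MLL4 het library 7 stood above the WT HFD libraries and library 8 lay at or near their level.

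**Figure D5:**
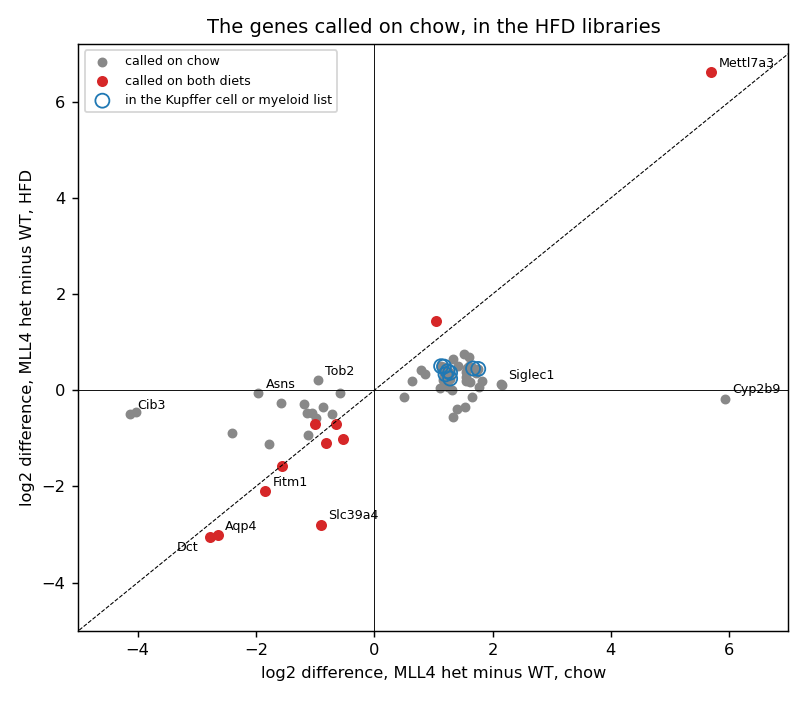
Each point is 1 of the 65 genes called on chow, with its log2 difference, MLL4 het minus WT, on chow across and on HFD up; genes called on both diets are red, Kupffer and myeloid markers are ringed in blue, and the dashed line marks equal differences. Most genes called higher lie between -0.55 and 0.76 on HFD, and the red points lie near the line except Slc39a4.

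Whether the genotype difference itself depended on the diet was tested as the interaction of genotype and diet. edgeR called 0 of 12593 genes, and 7.15% reached an unadjusted p under 0.05. limma-voom called 0 as well, edgeR with robust estimation 2 and DESeq2 29. Without library 7 the edgeR count was 14, without library 3 or 4 it was 2 and without library 6 it was 1. The smallest edgeR adjusted p of the interaction was 0.170 among the 41 genes called higher on chow and 0.0963, for Slc39a4, among the 24 called lower. Of the genes called on chow, AB124611, Cd300ld, Gpr65, Nnt, Tob2 and Wdfy4 had the opposite order on HFD without overlap. They are 5 of the 41 called higher, beside 24.3% of all genes with both MLL4 het libraries below both WT libraries on HFD. The other is Tob2, 1 of the 24 called lower, beside 22.8% of all genes with both MLL4 het libraries above. Wdfy4, a gene of dendritic cells, was at 3.54 and 3.74 CPM in MLL4 het and at 1.45 and 1.45 CPM in WT chow livers, and at 1.56 and 1.71 CPM in MLL4 het and at 2.37 and 2.41 CPM in WT HFD livers (interaction log2 difference -1.88, edgeR adjusted p = 0.275). A smaller difference on HFD is therefore given here as values and did not pass a test of its own.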

How the data were processed

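Total RNA of liver was sequenced by Illumina TruSeq chemistry, per the labels' protocols. The values used are the authors' deposited raw counts of reads per gene, whole numbers without normalization; CASAVA, TopHat2, HTSeq, DESeq and build mm9 are named in the submitters' processing notes, without versions. Strand and the treatment of multiply matching reads are not given in the sources used here. Symbols are joined in 374 rows, and 5826 rows hold 0 counts in all libraries.

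edgeR 4.0.16 in R 4.3.3 was run on all 8 libraries as 4 group means (filterByExpr, TMM factors, quasi-likelihood test, 2-sided), with Benjamini-Hochberg adjustment over 12593 rows and a gene called at an adjusted p under 0.05. SE and 95% intervals were derived from the log2 difference and its test statistic and are approximate. The procedure was tested on simulated data in which 100 genes changed 2-fold and 100 changed 4-fold. It called 77% and 97% of these, and also 15 unchanged genes. The changed genes all had a mean of 1 CPM or more, and counts were drawn independently for each gene and library. Shifts shared by many genes of a library were not simulated, so these shares do not cover them. Libraries within groups were not copies of each other (chi-square over degrees of freedom, 15.8 to 17.3). Alternatives were DESeq2 1.42.0, limma-voom (limma 3.58.1), other scalings and filters, and leaving out each library.

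The comparison, 36 gene lists, motifs and named genes were chosen with earlier results of these data known. By rule the text names the 15 largest called rises and 15 largest called falls (mean of 1 CPM or more, groups without overlap), from each list up to 4 called members or else 3 by smallest p, and a panel of genes; some genes that the rule names are not reported here. Symbols were matched to current names, gene order and promoters in RefSeq tables of GRCm38.p6; Mll2 was taken as Kmt2d.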

Additional observations from a re-analysis of the deposited data

How the results depend on the processing

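No paired analysis was possible because the library numbers run from 1 to 8 and the groups share none of them. Leaving out each library in turn gave 1 to 268 called genes on chow, 1 to 115 higher and 0 to 153 lower, 12 to 177 on HFD and 0 to 14 for the interaction, and 0 to 10 Kupffer, 0 to 8 myeloid and 0 to 3 interferon genes called higher. Without a filter on low counts the numbers were 314, 166, 148, 258 and 8, with 11, 11 and 7 in the 3 lists. DESeq2 gave 227, 95, 132, 241 and 29, with 10, 9 and 6. edgeR with robust estimation gave 114, 71, 43, 101 and 2, with 6 myeloid genes. limma-voom gave 24, 12 and 12 on chow, with 1 myeloid and 1 interferon gene. The 4 chow libraries alone gave 64, 34 and 30, with 8 Kupffer, 6 myeloid and 1 interferon gene. Of the 65 genes called with all libraries, 37 were called there and 28 were not. The remaining scalings and filters kept the counts on chow between 56 and 78.

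The difference of Kmt2d, 0.01 on the log2 scale, turned to -0.0064 with RLE factors and with DESeq2 and to -0.0055 without a filter, and ran from -0.1422 to 0.1371 when a library was left out. Mll3 turned to -0.0176 (RLE factors, DESeq2), -0.0169 (no filter) and -0.0089 (at least 1 CPM in 2 libraries), with -0.0511 to 0.0409 over left-out libraries. Over left-out libraries Srebf1 ran from -0.3689 to 0.5695, Fasn from -0.6196 to 0.1316, Per2 from -0.4955 to 0.5281 and Arntl from -0.0132 to 0.1339, and none of these 6 genes was called with all libraries. The cause of these changes was not tested, beyond the fewer libraries in the fit. With 2 libraries a group, counting depth limits the low-level genes, for which 3 counts are 0.174 to 0.213 CPM on chow.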

Other observations

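For 2 male-predominant genes of mouse liver, named after their values were seen, both MLL4 het libraries lay below both WT libraries on chow without passing the test, an order found for 21.9% of all genes. The merged row of major urinary proteins, also male-predominant, had the opposite order, with 13.6 and 11.6% of the counts in MLL4 het and 7.42 and 9.94% in WT chow livers. Mup21, a major urinary protein gene counted apart from the merged row, was at 187.1 and 221.9 CPM in MLL4 het and at 334.3 and 321.2 CPM in WT chow livers (log2 difference -0.68, edgeR adjusted p = 0.0608). Cyp4a12b, a male-predominant cytochrome P450, was at 223.1 and 153.6 CPM in MLL4 het and at 313.0 and 295.0 CPM in WT chow livers (log2 difference -0.69, edgeR adjusted p = 0.129). Both are members of near-identical gene families, so their reads may be shared.

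Across the 12593 tested genes the log2 differences on chow and on HFD, which share no library, had Pearson r = 0.385, and 0.416 over the 11586 genes whose mean reached 1 CPM. Genes are not independent replicates, and all libraries share tissue and protocol, so this is given as a description.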
